A study of Mus musculus with 4 samples.

Results

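Ribosome-bound RNA of sensory neurons was compared between uninjured dorsal root ganglia and ganglia taken 72 hours after a sciatic nerve injury made with forceps. The members were transcripts with 20 or more reads, taken as the mean of 3 columns and summed over both libraries, whose columns agreed in each library (chi-square p above 0.001). This rule was met by 1653 of the 116912 transcripts listed. A further 211 had enough reads but columns that disagreed, and they were left out of the counts below unless named. The 2 most abundant transcripts were also left out, together with their reads, from the totals used for scaling.

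Both groups were adult RiboTag mice from a cross of B6N.129-Rpl22tm1.1Psam/J with B6.129P2-Aviltm2(cre)Fawa/J, of genotype RPL22HA+/+;Advillin-Cre+, and differed by label only in injury. RNA came from anti-HA immunoprecipitates and was sequenced after nanopore cDNA-PCR. Whole-ganglion (bulk) RNA of adult wild-type CD-1 mice, uninjured or 72 hours after injury, was sequenced by the direct RNA method and is used here only beside the RiboTag values. Each of the 4 groups was a single sample. No difference can therefore be set against the spread between animals, and the number of animals pooled is not given in the sources used here.

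Dorsal root ganglia hold the cell bodies of sensory neurons, wrapped by satellite glia. When their axons in the sciatic nerve are damaged, these neurons are known to turn on transcription factors, growth-associated proteins and some neuropeptides, and to turn down parts of the programme that maintains the mature axon. In RiboTag mice Cre recombination swaps the last exon of the ribosomal protein gene Rpl22 for a version with an HA tag. Ribosomes of the cells that express Cre can then be pulled down with the RNA they carry. Advillin is an actin-binding protein found mainly in peripheral sensory neurons, and its gene drives Cre here, so the tag marks sensory neurons as a class and not a single subtype. Not every neuron of a lumbar ganglion sends its axon into the sciatic nerve, so injured and spared neurons can lie together.

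The files give Ensembl transcript identifiers and do not pair them with gene names, and the reference tables used here list no transcript identifiers either. No gene is therefore named, and lists of injury transcription factors, growth genes, neuropeptides, channels and cell markers could not be applied. For the same reason neither the tagged gene Rpl22, the driver Avil nor the markers of sensory neurons, glia, macrophages and blood were checked in these libraries. Identifiers are printed for 2 transcripts counted as higher and 2 counted as lower, the first in each direction by the bound of the interval nearest to no change.

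The injured RiboTag library was the shallower of the pair. Its columns averaged 79334 estimated reads against 207597 without injury, and 46859 against 142870 after the dominant transcripts were left out, a 3.05-fold gap in depth. The dominant transcripts took 31.2% of reads without injury and 40.9% with it, so their share is a feature of the libraries that moved with injury. Its part in the changes below was not tested. Where no read was seen, up to 3 reads remain possible, or 2.1 reads per 100000 in the uninjured and 6.4 in the injured library. Reads of a PCR library without molecular identifiers are not independent molecules, and every interval here covers counting error only.

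Most ribosome-bound transcripts differed little between the 2 libraries. The log2 change, injured over uninjured, had a median of 0.02 over the 1653 transcripts and quartiles of -0.42 and 0.45, and 87.1% of them lay within 2-fold. A transcript was counted as changed when the ratio was 2-fold or more and its exact conditional binomial 95% interval excluded no change. By this rule 68 transcripts were higher after injury (4.11% of those measured) and 50 were lower (3.02%). Without the fold threshold, the interval excluded no change for 209 transcripts, 104 above and 105 below, or 12.6%. A 95% interval excludes no change for up to 5% of unchanged transcripts through counting error alone, which would be up to 82.7 here, so single calls near the threshold are weak. In RNA from a whole tissue, fewer cells of a type and less RNA per cell cannot be told apart.

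The balance of higher and lower calls depended on the scaling. With the dominant transcripts kept in the totals, 38 were higher and 107 lower. TMM factors gave 32 higher and 142 lower, and DESeq2 size factors gave 27 and 156. These scalings moved the median log2 change by -0.22, -0.32 and -0.35. Because each moves every ratio down by the same amount, the 50 lower calls stayed by construction, and 38, 32 and 27 of the 68 higher calls remained. The TMM and DESeq2 factors came from rounded mean counts of all transcripts, without the read minimum, so sparse counts enter them. They left the median of the 1653 transcripts at -0.30 and -0.32. Whether the sparse counts moved these factors was not tested.

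**Figure D1:**
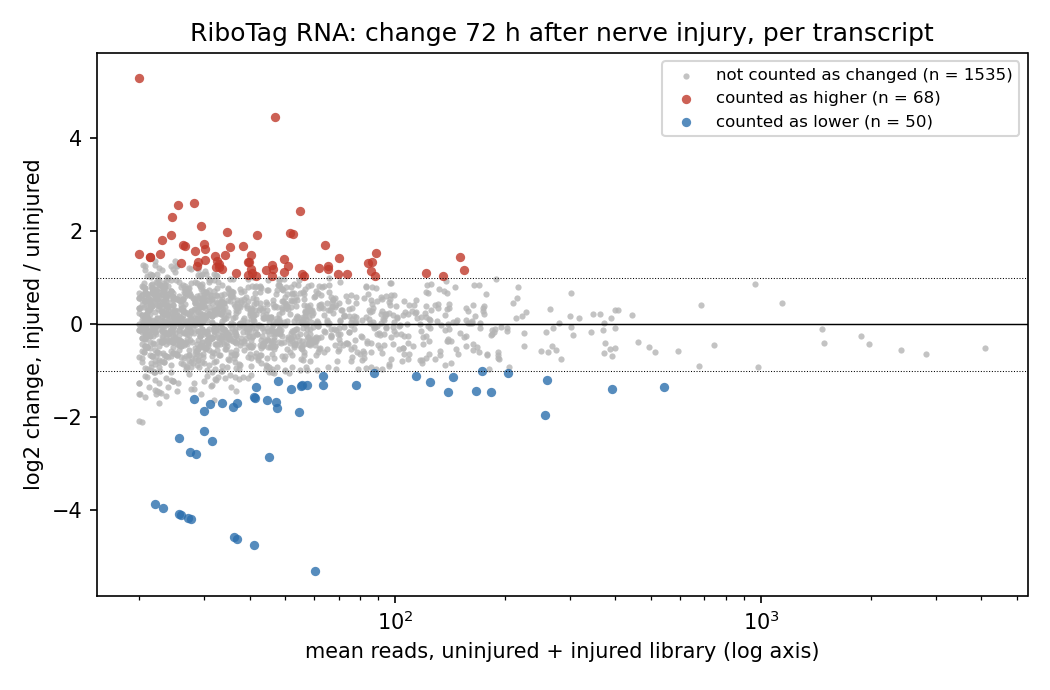
Log2 change of each of the 1653 transcripts (vertical axis) against its mean reads summed over the uninjured and injured RiboTag libraries (horizontal log axis); dotted lines mark 2-fold. Red points are the 68 counted as higher and blue points the 50 counted as lower. The row of blue points that slopes downward at the bottom holds transcripts with 0 injured reads, whose plotted value depends on the pseudocount of 0.5 read.

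Higher transcripts were of low to middling abundance. Their median summed count was 40.1 reads and the highest was 154.0, against a median of 35.7 and a maximum of 4100 over all members. Their log2 changes ran from 1.03 to 5.31 with a median of 1.36, and none had 0 reads without injury.

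ENSMUST00000079063.7 led the higher transcripts. It had 8, 3 and 5 reads in the uninjured columns and 46, 37 and 42 in the injured columns, or 3.73 and 88.9 reads per 100000. Every injured column was above every uninjured one although the injured library was shallower. The transcript was chosen by its interval bound among those with columns that agreed, which by itself favours this separation. The ratio was 22-fold, a log2 change of 4.46 (95% counting interval 3.34 to 6.37). Bulk RNA moved the same way, from 5, 4 and 5 reads to 35, 30 and 26, a log2 change of 2.74 (1.37 to 4.47). With the transcripts listed within 10 places on either side added, the RiboTag log2 change was 3.70 (2.66 to 4.84). The change in RiboTag RNA exceeded that in bulk RNA by 1.72 on the log2 scale, with an interval of -0.11 to 3.56 that includes no difference.

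ENSMUST00000027941.14 was almost undetected without injury. Its uninjured columns held 0, 2 and 1 reads and its injured columns 19, 20 and 18, a log2 change of 5.31 whose interval of 3.20 to 11.23 is wide because the uninjured mean is a single read. Without the second column it fell under the minimum of 20 reads. Its neighbours in the list had 48.7 and 16.7 reads, and with them added the log2 change was 1.14 (0.47 to 1.78). In bulk RNA it had 7, 4 and 5 reads without injury and 192, 284 and 295 with it, a log2 change of 5.63 (4.61 to 7.48). The injured bulk columns disagreed with each other, so this transcript is not among those measured in both assays below. After injury it had 40.5 reads per 100000 in RiboTag and 48.6 in bulk RNA, whereas ENSMUST00000079063.7 had 88.9 and 5.73. Levels are not directly comparable between the assays, since library kit, strain and genotype differ. The dominant transcripts left out of the totals also held 40.9% of injured RiboTag reads and 0.0191% of injured bulk reads.

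The other 10 of the 12 leading higher transcripts had log2 changes of 1.44 to 2.61. Together the 12 had 1 to 79.7 mean reads without injury and 15.3 to 71.0 with it. Of the 12, 10 were also measured in bulk RNA with columns that agreed, and 6 of these were counted as higher there too. Over all 1252 transcripts measured in both assays, 1.04% were higher in bulk and 0.319% lower. Among the 12 leading lower transcripts, 6 were measured in bulk RNA and 0 were counted as lower there.

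**Figure D2:**
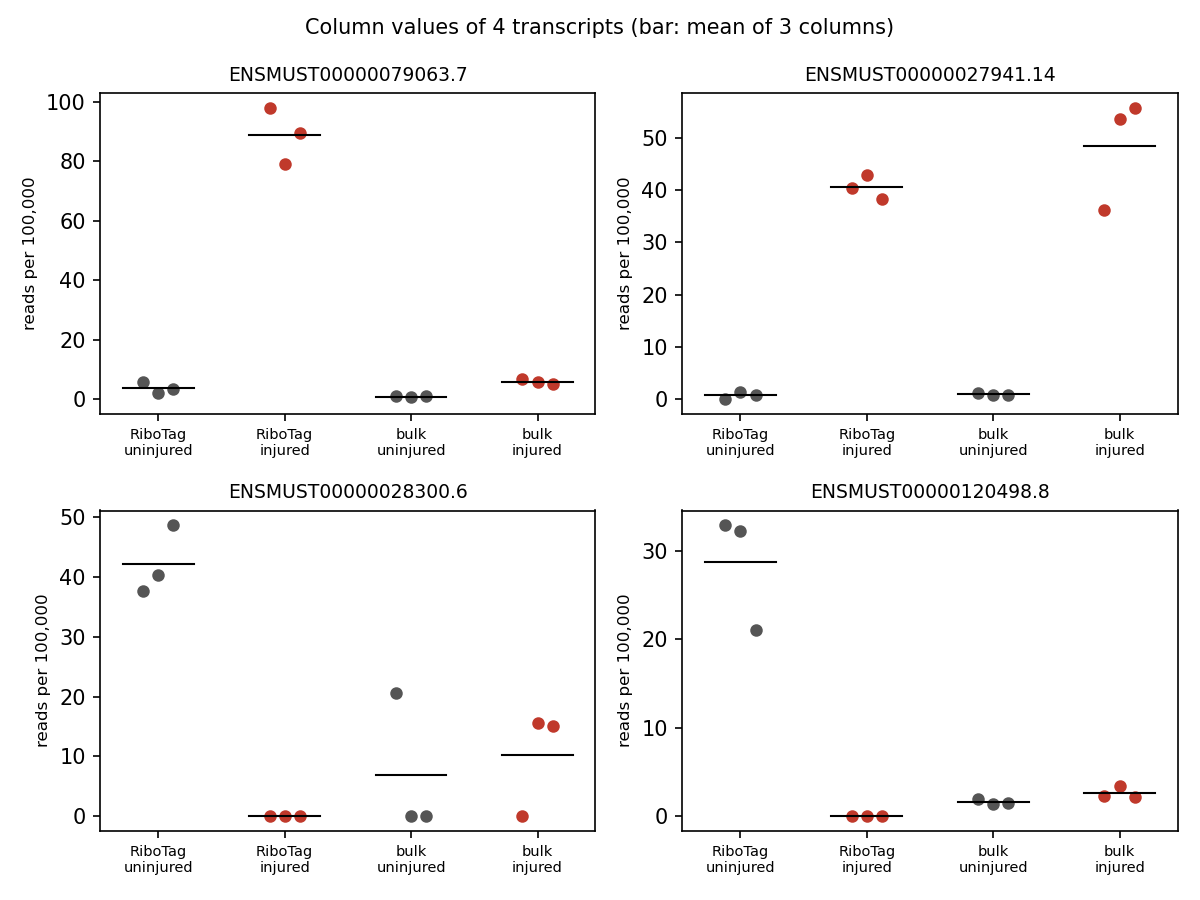
Reads per 100000 library reads, dominant transcripts left out, in each of the 3 columns (points) of each library, with their mean (bar), for the 2 leading higher transcripts (top) and the 2 leading lower ones (bottom). The RiboTag columns of the injured and uninjured libraries do not overlap in any of the 4, which the choice of these transcripts favours. The bulk columns of ENSMUST00000028300.6 switch between 0 and high values.

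Lower transcripts covered a wider range of abundance. Their median was 46.2 summed reads and the highest 543.7. Summed reads come mainly from the deeper uninjured library, which by itself gives lower transcripts larger sums than higher ones. The log2 changes of the lower transcripts had a median of -1.66, or -1.54 with counts of 0 set to 3 reads. With a pseudocount of 5 reads in place of 0.5, 17 of the 50 were still counted as lower, and all 68 higher transcripts were still counted as higher. The same 5 reads weigh more in the shallower injured library and moved the median log2 change over all members to 0.36. This setting therefore favours higher over lower calls by construction. Of the 50, 10 had 0 reads in every injured column and 22 to 60.4 mean reads without injury, at least 2.41-fold to 6.60-fold lower when 3 reads are set in place of 0. These folds and those of the 2 transcripts below do not include counting error of the uninjured reads.

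ENSMUST00000028300.6 had 53.8, 57.7 and 69.6 reads without injury and 0 in each injured column, at least 6.60-fold lower against 3 reads. With counting error of both libraries, the interval of the ratio ended at 5.17-fold lower. Its 42.3 reads per 100000 without injury stood well above the limit that a count of 0 allows. The transcripts listed within 10 places on either side had 112.3 and 37.3 reads, close to the 3.05-fold gap in depth. Added to them, its counts were 172.7 and 37.3 reads, a log2 change of -0.59 (-1.17 to -0.10), a value diluted by those neighbours. Its bulk reads were 122, 0 and 0 without injury and 0, 82.6 and 79.7 with it, columns that disagreed.

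ENSMUST00000120498.8 had 47, 46 and 30 reads without injury and 0 in each injured column, at least 4.48-fold lower against 3 reads, with an interval that ended at 3.48-fold lower. Here the surrounding transcripts went the other way, from 11.8 reads in the deeper library to 14.8 in the shallower one. Summed with them, the counts were 52.8 and 14.8 reads, a log2 change of -0.20 (-1.15 to 0.64) whose interval includes no change. In bulk RNA it was scarce, with 11.4, 8.33 and 9 reads without injury and 12, 18 and 11.3 with it.

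Neighbours in the list were examined for every counted transcript, since reads assigned to one entry in one library and to a nearby entry in the other would give opposite changes. For 5 of the 50 lower transcripts, 3 of them with 0 injured reads, the summed neighbours were themselves counted as higher. The reverse held for 1 of the 68 higher ones. A single neighbour counted the opposite way was found for 2 lower and 1 higher transcript. Among the 56 calls with columns that disagreed it was found for 16. Calls were also more frequent there, at 26.5% of 211 transcripts against 7.14% of the 1653. The share of all members with neighbours counted as higher or lower was not computed. The sources used here do not show which entries share reads, so these counts cannot decide whether reads were assigned to a nearby entry.

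The better counted lower transcripts gave tighter values. The 5 with 200 or more summed reads went from 176.2 to 482.0 mean reads without injury to 19.7 to 61.7 with it. Their log2 changes ran from -1.95 to -1.05, and the upper bounds of their intervals from -1.30 to -0.46. In bulk RNA, 4 of the 5 were measured, with log2 changes of -0.28 to 0.04. No higher transcript was among the 46 members with 200 to 500 reads or the 16 with 500 or more. In these classes 4 and 1 members were lower. Over all members 4.11% were higher and 3.02% lower, and both classes are small. Class is set mainly by the deeper uninjured library, which by itself favours lower over higher calls here.

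The most abundant ribosome-bound transcripts took a smaller share of the library after injury. The 10 with the most reads below the dominant transcripts held 10.7% of the remaining reads without injury and 8.49% with it. Their median log2 change was -0.42 (range over the 10, -0.93 to 0.86), with an interval below 0 for 7 of them and above 0 for 2. None reached 2-fold. Chosen instead by their level in the injured library, the 10 highest had a median of -0.33, with 6 intervals below and 3 above 0. Both orders use the RiboTag reads that also enter the ratio. Chosen by bulk level over both states, the 10 highest had a median RiboTag log2 change of 0.19 (range -0.64 to 0.97). Of these, 3 were below 0, with 1 interval below and 1 above 0, and their share went from 2.85% to 2.27%. In bulk RNA the 10 chosen by reads had a median of 0.06 (range -0.06 to 0.40).

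A lean to lower values with more RiboTag reads also appeared by read class, whose top class includes the 10 transcripts chosen by reads. Transcripts with 20 to 50 reads had a median log2 change of 0.04 (n = 1116) and those with 50 to 100 reads one of 0.04 (n = 339). The median was -0.03 at 100 to 200 reads (n = 136), -0.14 at 200 to 500 (n = 46) and -0.48 at 500 or more (n = 16). In the top class 13 of 16 were below 0. Bulk medians of the same transcripts lay between 0.01 and 0.05 in every class. The class is set mainly by the deeper uninjured library, which by itself favours lower values in high classes, and the 16 transcripts of the top class are few. Below the dominant transcripts, the top 100 held 25.8% of the remaining reads without injury and 22.5% with it.

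**Figure D3:**
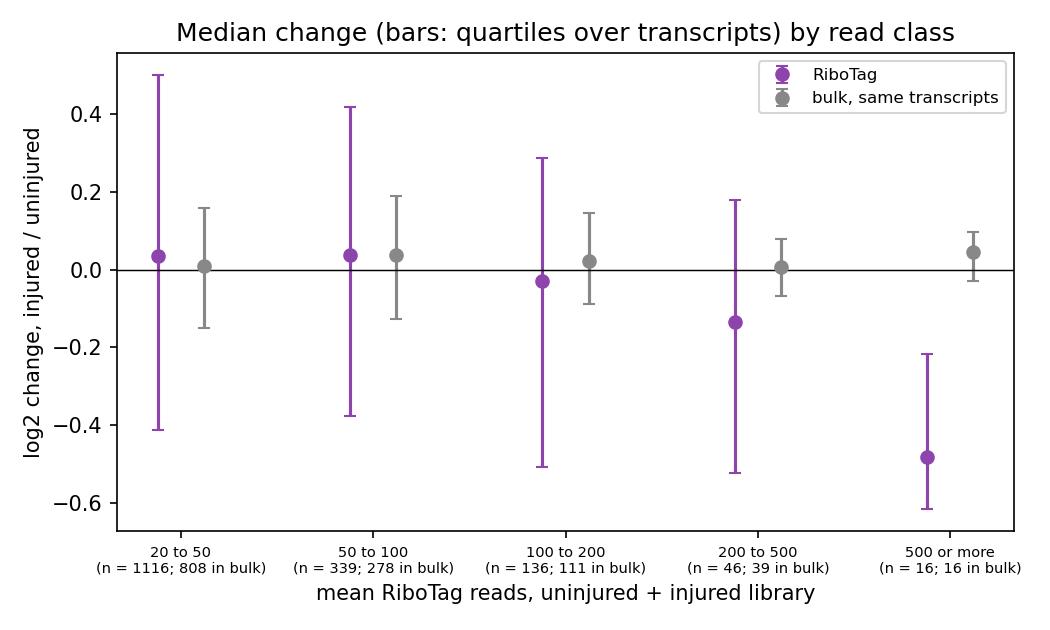
Median log2 change with injury (points) and quartiles over transcripts (bars) by class of summed RiboTag reads, for RiboTag RNA (purple) and for the same transcripts in bulk RNA where measured (grey). RiboTag medians go from 0.04 at 20 to 50 reads to -0.48 at 500 or more, while bulk medians stay between 0.01 and 0.05.

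Members were also divided by their RiboTag level relative to bulk RNA over both states. All 1653 were classed, without a bulk read minimum or a check of bulk columns, although 1252 were measured in both assays. The dominant transcripts left out of the totals held 31.2% and 40.9% of RiboTag reads but 0.0189% and 0.0191% of bulk reads. This by itself raises the RiboTag level relative to bulk. Of 906 transcripts at 2-fold or more above bulk, 45 were higher after injury (4.97%) and 26 lower (2.87%). Of 580 within 2-fold, 21 were higher (3.62%) and 14 lower (2.41%). Of 167 at 2-fold or more below bulk, 2 were higher (1.20%) and 10 lower (5.99%). The medians were 0.02, 0.00 and 0.03 in the same order, so only the calls were divided differently. The RiboTag reads enter both measures, and library kit, strain and genotype differ between the assays and cannot be told apart.

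Higher transcripts tended to be higher in bulk RNA as well. Of the 68, 48 had 20 or more bulk reads and bulk columns that agreed. Their median log2 change was 1.36 in RiboTag and 0.37 in bulk RNA, and 41 of 48 were above 0 in bulk. Over all 1252 transcripts measured in both assays the median bulk change was 0.02 and 53.9% were above 0. The bulk interval lay above 0 for 20 of the 48 and below 0 for 0, against 5.59% and 3.27% of the 1252.

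Of these 48, 9 were counted as higher in bulk RNA, where 1.04% of the 1252 were. These 9 are 18.8% of the 48 and 69.2% of the 13 transcripts counted as higher in bulk. They changed by 1.21 to 4.46 in RiboTag RNA and by 1.01 to 2.74 in bulk RNA on the log2 scale. The difference between assays had an interval excluding 0 for 1 of them. The remaining 4 bulk-higher transcripts had RiboTag log2 changes of 0.55 to 1.16. For 24 of the 48 the bulk interval excluded a 2-fold increase, as it did for 85.5% of the 1252.

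Those lower transcripts that could be measured in bulk RNA showed no such shift there. Of the 50, 29 were measured. Bulk columns disagreed for 13 others, and 8 had under 20 bulk reads. The 29 had a median log2 change of -1.40 in RiboTag and -0.03 in bulk RNA. In bulk, 14 lay above and 15 below 0, in the range -0.51 to 0.67. None was counted as lower in bulk, where 0.319% of the 1252 were. The bulk interval excluded a 2-fold decrease for 27 of the 29, and for 84.1% of the 1252. The difference between assays had an interval below 0 for 19 of 29, against 22 of 48 above 0 for the higher transcripts. Selection on a large RiboTag change by itself favours a difference in this direction. The 4 transcripts counted as lower in bulk had RiboTag log2 changes of -1.15 to 0.09. By this rule 0 transcripts were counted in opposite directions in the 2 assays. The number was 8 without the check of column agreement, 2 with summed columns and 1 without column 1. Without that check, 8 transcripts were counted as lower in both assays.

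**Figure D4:**
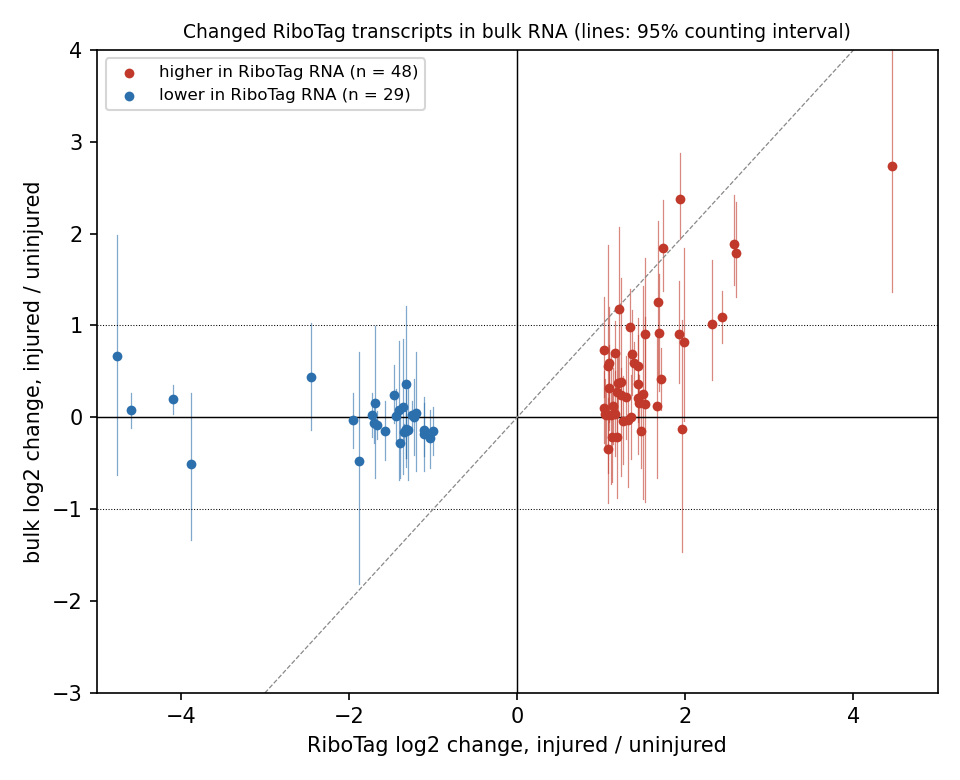
Bulk log2 change (vertical axis, lines are 95% counting intervals, one of which runs past the top of the plot) against RiboTag log2 change (horizontal axis) for the 48 higher (red) and 29 lower (blue) RiboTag transcripts measured in both assays; the dashed line marks equal change and dotted lines 2-fold in bulk. Red points lie mostly above 0 on the bulk axis, with a median of 0.37, and blue points lie around 0, with a median of -0.03.

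Depth limited what could be counted, and more so for lower transcripts. At 20 summed reads, 4.94 injured reads correspond to no change. There a transcript needed a log2 change of at least 1.61 to be counted as higher, and 0 injured reads to be counted as lower. At 50 reads the smallest countable changes were 1.04 and -1.17, and at 200 reads 1.03 and -1.05. Near the read minimum, 158 transcripts with 20 to 22 reads had a median log2 change of 0.09 with 4 higher and 0 lower, and 183 with 18 to 20 reads had a median of 0.09 with 4 and 2. Near the limit for column agreement, 33 transcripts with p from 0.001 to 0.003 had a median of -0.09 and 1 call, and 17 with p from 0.0003 to 0.001 had a median of -1.09 and 3 calls.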

How the data were processed

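The authors deposited 1 table per sample with estimated counts and TPM in 3 numbered columns. The submitters' processing notes name minimap2, Salmon, GRCm39 and mm39; the labels and file headers state neither versions and annotation nor how the columns arose. The deposited TPM was the estimated count times a constant (within 0.0499%), so it carries no transcript length, and it was not used further. Columns of a library had nearly equal totals (span at most 0.203%), are not labelled as replicates, and were averaged as 1 count. Members and lists were chosen with earlier results of these data known.

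Counts averaged over columns were divided by the total without the dominant pair, and 0.5 read was added for the log2 ratio. Intervals used counts rounded to whole numbers; differences between assays have normal 95% intervals from 4 counts. Python 3.11.15, scipy 1.17.1, edgeR 4.0.16 (TMM) and DESeq2 1.42.0 (size factors) were used. The naming rule took the 12 leading calls each way; 2 each are printed because the files do not pair identifiers with genes. Alternatives changed scaling, pseudocount, read minimum, column check, fold and column use.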

Additional observations from a re-analysis of the deposited data

Results flagged for a closer look

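Among the named transcripts and the medians of the read classes, RiboTag and bulk RNA had log2 changes of opposite sign in 5 cases. With 1 sample per group the difference was not tested. ENSMUST00000028300.6 had a log2 change of -5.32 in RiboTag and 0.57 in bulk RNA, and ENSMUST00000120498.8 one of -4.77 and 0.67. With 0 injured RiboTag reads both RiboTag values depend on the pseudocount. Both bulk intervals include no change (-0.05 to 1.18 and -0.63 to 1.98). The bulk columns of ENSMUST00000028300.6 disagreed, so its counting interval does not cover their spread. The median log2 change was -0.0283 in RiboTag and 0.0229 in bulk RNA for transcripts with 100 to 200 reads, -0.136 and 0.00618 for those with 200 to 500, and -0.483 and 0.0458 for those with 500 or more. These medians lie near 0 except in the top class, and other scalings would move the RiboTag values by -0.22 to -0.35.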

How the results depend on the processing

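The reported counts were 68 higher, 50 lower, 9 higher in both assays and 0 lower in both. Totals with all transcripts gave 38 higher and 107 lower, TMM 32 and 142, and DESeq2 size factors 27 and 156, as fixed shifts of every ratio. A pseudocount of 5, which moved the median log2 change by 0.34, gave 72 higher and 17 lower. A minimum of 50 summed reads, with fewer transcripts tested, gave 22 higher, 22 lower and 3 higher in both, and no minimum gave 187 higher and 24 higher in both. Without the check of column agreement 85 were lower, 14 higher in both and 8 lower in both. Summed columns, which triple the reads, gave 355 higher, 378 lower, 30 higher in both and 5 lower in both. A 1.5-fold threshold gave 89 lower, 18 higher in both and 1 lower in both. Leaving out 1 column number at a time gave 78 to 86 higher, 70 to 76 lower, 8 to 9 higher in both and 0 to 1 lower in both. These were partly other transcripts: 53 to 62 of the 68 higher calls and 42 to 45 of the 50 lower calls remained. Calls with columns that do not overlap, added after the data were seen, were 67 higher and 50 lower. The agreement rule itself favours this, and the share among all members was not computed, so these counts add no support to the calls. The cause of shifts other than those named was not tested. The log2 changes of the 4 named transcripts kept their direction under the 8 alternatives recomputed for them, and their call in all but 1: without column 2, ENSMUST00000027941.14 (5.85) fell under the read minimum. Gene-level sums and gene lists were not run, because no table pairs transcripts with genes. No paired analysis was possible because the labels give 1 sample per group and no replicate numbers.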
